A study of Saccharomyces cerevisiae with 26 samples.

Results

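The genes described here are 10 antioxidant enzymes and their helpers in the yeast Saccharomyces cerevisiae, out of 5656 genes named on the arrays: AHP1, TSA1, TSA2, PRX1, TRX2, GRX1, GRX2, SOD1, SOD2 and CTT1. They were taken by symbol, and each has a single probe set. RNA was measured in 26 samples from glucose-limited, aerobic chemostats, in which the feed sets the growth rate (0.10 per h). The reference strain was CEN.PK113-7D, a prototrophic haploid of genotype MATa MAL2-8c SUC2. The other strain, called the deletion strain below, shares these markers, carries a mutant leu2 allele and has SFP1 replaced (sfp1Δ::KlLEU2). It therefore lacks Sfp1, a regulator of ribosomal genes, and also differs at LEU2, so that the effects of these changes cannot be told apart. Each strain gave 3 steady state samples. An anaerobic pulse of 200 mM glucose followed, with 2 samples per strain 5, 10, 30, 60 and 120 min later. The vessel was flushed with nitrogen shortly before the glucose was added, so oxygen removal and glucose excess cannot be told apart at any time point. Replicates are described as independent cultures. Whether all times came from the same cultures is not stated.

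Peroxiredoxins reduce hydrogen peroxide and organic hydroperoxides through a reactive cysteine, which thioredoxin then reduces again with electrons that come from NADPH. Glutaredoxins carry out thiol exchange with glutathione as their electron donor, superoxide dismutases turn superoxide into oxygen and hydrogen peroxide, and catalases break hydrogen peroxide down to water and oxygen. In yeast, respiration is a main source of these oxidants, and the transcription factors Yap1, Skn7, Msn2 and Msn4 act on many of the genes.

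The SFP1 probe set, which checks the labels, had group means of 99.65 to 189.4 in the reference strain and lay under 3 on all deletion arrays. LEU2 averaged 1275 at steady state in the reference, and 489.3 without Sfp1. Of the markers of the labelled MATa mating type, MFA1, MFA2, STE2 and BAR1 all had steady state means above 200 in both strains, while the fifth, ASG7, averaged 22.87 in the reference and 57.5 in the other strain. Of the alpha-cell genes, MF(ALPHA)2 lay under the floor of 12 used here as the lower limit of signal. STE3 averaged 32.8 and 48.8 in the reference and deletion strains and SAG1 32.83 and 51.47, while MF(ALPHA)1 averaged 674.8 in the deletion strain against 62.0. Replicates of the same group correlated at 0.97 or more across genes in 10 of the 12 groups. The exceptions were the deletion arrays labelled 10 min (r = 0.805) and 30 min (r = 0.796), where 10 min replicate 1 instead matched 30 min replicate 2 (r = 0.978), and 10 min replicate 2 matched 30 min replicate 1 (r = 0.922). Whether labels were exchanged between these arrays was not tested. The labels were kept, so each deletion value at 10 and 30 min holds only as far as they do. These 4 arrays widen the error of every gene that differs between them, so results are given with all arrays and also without these 4. The ratio of the actin probe sets at the 5′ and 3′ ends, a measure of RNA integrity, was 0.6972 to 0.923 in the reference strain. In the deletion strain it was 0.1468 at steady state replicate 1, 0.003216 at 30 min replicate 1 and 0.2468 at 60 min replicate 1, and 0.5981 to 0.9678 on the remaining arrays. Measured instead with the middle probe set over that of the 3′ end, it was 0.2073 at deletion 10 min replicate 2 and 0.1759 at deletion 30 min replicate 1, and 0.5599 to 0.8716 on the other arrays. The part of RNA integrity in the results was not tested.

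In the reference strain 9 of the 10 antioxidant genes had fallen by 30 min after the pulse. No member was called at 5 or 10 min with all arrays (adjusted p under 0.05). At these times 1.4% and 17.3% of the 5369 genes tested were called lower. The median log2 change of the members at 10 min was -0.16, beside -0.17 over all genes. Of the members above the floor, GRX2, PRX1, SOD1 and SOD2 then read below their steady state range and GRX1 above it. The same count of 9 was called lower at 30 and at 60 min. Over all genes tested 48.4% were called lower at 30 min and 38.5% at 60 min. The median log2 change of the members was -2.72 at 30 min, beside -0.53 over all genes, and -2.55 at 60 min, beside -0.27. At 120 min 8 members were still lower (28.5% of all genes), with a median of -1.49 beside -0.18 for all genes. At 30 min the fall ran from a little over 2-fold for GRX1 to at least 65.0-fold for GRX2.

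**Figure D1:**
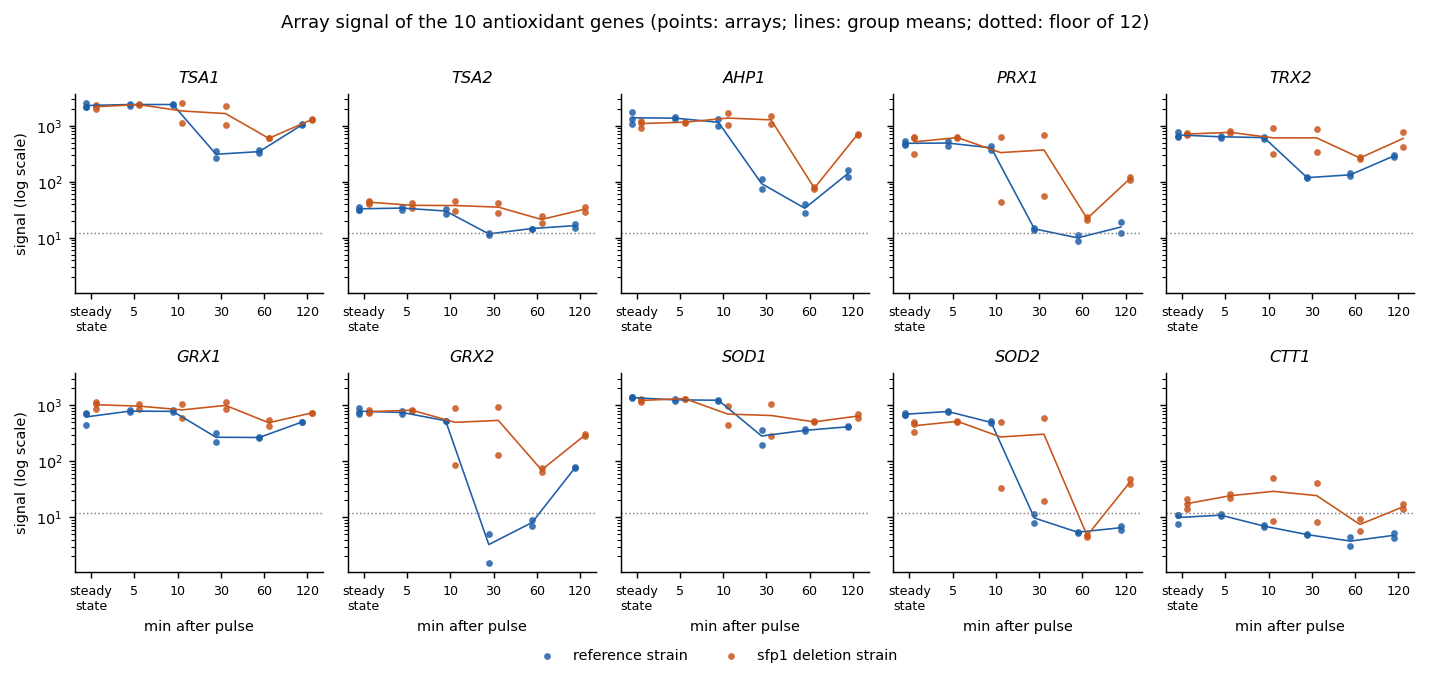
Array signal (log axis) of each gene against time in min after the pulse. Points are arrays, lines join group means of the reference strain (blue) and the sfp1 deletion strain (orange), and the dotted line is the floor of 12. In the reference strain GRX2 lies between 1.5 and 9 at 30 and 60 min, down from 697.8 to 900.9 at steady state. Among deletion arrays the points at 10 and 30 min split most for GRX2, PRX1 and SOD2, while AHP1 stays within or above its steady state range.

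The mitochondrial members and GRX2 fell to or near the floor. SOD2 encodes the manganese superoxide dismutase of the mitochondrial matrix. Its reference signals were 668.9, 732.4 and 673.7 at steady state, 771.3 and 777.4 at 5 min, and 514.5 and 473.4 at 10 min. At 30 min they were 11.4 and 8, at 60 min 5.3 and 5.5, and at 120 min 7.1 and 5.9. All 6 later arrays thus lay below the floor and well apart from the earlier 7, a fall of at least 57.6-fold at each of these times (log2 -5.85, SE 0.989, limma adjusted p = 5.7e-05 at 30 min). PRX1 encodes the mitochondrial peroxiredoxin. It read 460.2, 528.3 and 469.9 at steady state and 365.8 and 442.5 at 10 min in the reference strain. It read 13.8 and 15 at 30 min, 11.1 and 8.8 at 60 min, and 12.1 and 18.9 at 120 min. The groups before and after 10 min did not overlap, and the fall at 120 min was still 32.1-fold (log2 -5.00, SE 0.847, limma adjusted p = 0.00018). GRX2 encodes a glutaredoxin of the cytosol and mitochondria. Its reference signals were 697.8, 900.9 and 756.5 at steady state, 526.7 and 532.5 at 10 min, 5.0 and 1.5 at 30 min, 7.1 and 9.0 at 60 min, and 77.1 and 78 at 120 min. The fall at 30 and 60 min was at least 65.0-fold (log2 -6.02, SE 0.699, limma adjusted p = 1.3e-06 at 30 min), and both 120 min arrays lay clearly above the floor again. Without the 4 discordant deletion arrays 2 of the 10 members were called lower at 10 min, GRX2 (log2 -0.56, limma adjusted p = 0.00094) and SOD2 (-0.49, 0.015). This is no larger a share than the 31.6% of all genes called lower in that fit.

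AHP1 encodes a cytosolic peroxiredoxin that acts best on alkyl hydroperoxides. Its reference signals were 1077, 1787.1 and 1301.7 at steady state, 1423.8 and 1317 at 5 min, and 1334 and 975.6 at 10 min. They were 110.6 and 74.5 at 30 min, 39.9 and 27.3 at 60 min, and 162.5 and 119.6 at 120 min. The lowest level of AHP1 came at 60 min, not at 30 min, and no later array reached the range of the first 10 min. The fall was 15-fold at 30 min (log2 -3.90, SE 0.264, limma adjusted p = 6.8e-09), 41.2-fold at 60 min (log2 -5.36) and 9.74-fold at 120 min (log2 -3.28).

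TSA1, TRX2 and SOD1 fell less and kept signals well above the floor. TSA1 encodes the most abundant cytosolic peroxiredoxin, which is also a chaperone. Its reference signals were 2159.3, 2597.6 and 2148.5 at steady state, 264.2 and 355.6 at 30 min, 370.4 and 320.4 at 60 min, and 1074.2 and 1024.4 at 120 min. The 4 arrays at 30 and 60 min lay lowest and those at 120 min between them and steady state. The fall was 7.48-fold at 30 min (log2 -2.90, SE 0.288, limma adjusted p = 2.6e-07) and 2.19-fold at 120 min (log2 -1.13, adjusted p = 0.0048), which became -0.66 with an adjusted p of 0.066 at a common median of all arrays. TRX2, a cytosolic thioredoxin that reduces peroxiredoxins, went from 633.1, 760.1 and 669.1 at steady state to 116.9 and 119.7 at 30 min, 125.5 and 140.7 at 60 min, and 295 and 281.1 at 120 min. Its pattern was like that of TSA1, with a fall of 5.79-fold at 30 min (log2 -2.53, SE 0.363, limma adjusted p = 1.1e-05). At 120 min TRX2 was 2.38-fold lower than at steady state, with an adjusted p of 0.011 that became 0.058 or 0.067 without reference 120 min replicate 1 or 2, and 0.066 at a common median. SOD1, the copper-zinc superoxide dismutase, had steady state signals of 1327.2, 1382.5 and 1407.3 and then 199.4 and 366.1 at 30 min, 343.2 and 370 at 60 min, and 422.2 and 403.8 at 120 min. All later SOD1 arrays lay far below steady state, by 5.08-fold at 30 min (log2 -2.34, SE 0.384, limma adjusted p = 4.2e-05) and 3.32-fold at 120 min (log2 -1.73, adjusted p = 0.0017).

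GRX1 and TSA2 had the smallest changes among the called members at 30 and 60 min. GRX1, the second cytosolic glutaredoxin, had steady state signals of 717.5, 447.4 and 697.2 in the reference strain, 219.1 and 318.1 at 30 min, 270 and 262.3 at 60 min, and 510.7 and 503.1 at 120 min. It fell by 1.20 on the log2 scale at 30 min (SE 0.251, limma adjusted p = 0.0004), and its 120 min arrays lay within the steady state range (log2 -0.26, adjusted p = 0.44). TSA2, the close paralogue of TSA1, had signals of 31.3, 35.6 and 31.6 at steady state, 11.1 and 12.3 at 30 min, 14.6 and 14.6 at 60 min, and 15.2 and 17.7 at 120 min. It fell by 1.43 at 30 min (SE 0.203, limma adjusted p = 1e-05) and by 1.00 at 120 min, all near the floor. These smaller changes depended on the scaling of the arrays. When all arrays were set to the same median, GRX1 at 30 min was -0.29 (adjusted p = 0.25), and after quantile normalization TSA2 was -0.32 at 30 min, -0.26 at 60 min and -0.42 at 120 min (adjusted p = 0.16, 0.27 and 0.092). Either scaling moved the median of all genes at 30 min from -0.53 to 0.21 or 0.10. Paralogues of such similar sequence can also share signal, and the probe sequences were not used here.

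CTT1, which encodes the cytosolic catalase, was not above the floor on any of the 13 reference arrays, where its signals ran from 3.1 to 11.3. No change can be given for it in that strain. The deletion strain read 21.5, 14.1 and 17 at steady state, 22.4 and 26.1 at 5 min, 49.4 and 8.6 at 10 min, 8.2 and 40.5 at 30 min, 9.2 and 5.7 at 60 min, and 16.9 and 13.8 at 120 min. In all 9 arrays exceeded the floor, all from the deletion strain.

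**Figure D2:**
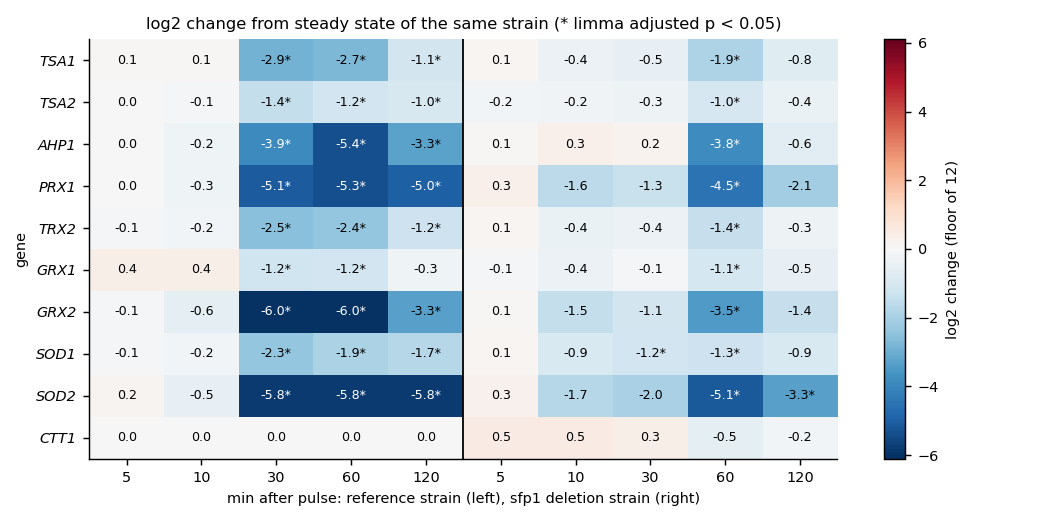
Log2 change of each gene from the steady state of its own strain (colour and number) at each time in min after the pulse, with the reference strain on the left and the deletion strain on the right. Asterisks mark limma adjusted p under 0.05 with all 26 arrays. In the reference strain 9 genes are marked at 30 and at 60 min, and in the deletion strain 9 are marked at 60 min and 1 at 120 min.

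Part of the reference strain's response had turned back by 120 min. Of the members 4 were higher at 120 than at 30 min, while 25.8% of all genes were called higher. TSA1 was 3.42-fold higher (log2 1.78, SE 0.316, limma adjusted p = 0.00034) and GRX2 at least 6.46-fold higher (log2 2.69, adjusted p = 0.011). TRX2 was 2.43-fold higher (adjusted p = 0.018) and GRX1 1.92-fold (adjusted p = 0.013). Without the 4 discordant arrays 7 were called, as AHP1 (log2 0.62), SOD1 (0.61) and TSA2 (0.43) joined them (36.1% of all genes higher). PRX1 was 0.07 higher with an adjusted p of 1.0, and SOD2 lay at the floor at both times. With all arrays, leaving out 1 reference array at 30 or 120 min ended the call for GRX2 (adjusted p 0.051 to 0.056), for TRX2 (0.069 to 0.083) and, for 3 of these 4 arrays, for GRX1 (0.06 to 0.15). A floor of 48 took GRX2 to 0.69 (adjusted p = 0.66), and a common median took TRX2 to 0.85 (0.076) and GRX1 to 0.51 (0.11).

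In the deletion strain the arrays labelled 10 and 30 min gave 2 different pictures of the same genes. GRX2 read 906.4 and 86.5 at 10 min and 128.3 and 946.1 at 30 min, against 748.9, 734.5 and 826.9 at steady state. PRX1 read 619 and 44.1, then 55.6 and 684.7, and SOD2 read 510.5 and 32.7, then 19.4 and 591.4. For all of these, 10 min replicate 1 and 30 min replicate 2 lay at or above steady state, and the remaining arrays far below it. SOD1, TSA1, TRX2, GRX1 and TSA2 split less, in the same direction on the same arrays. SOD1 read 955.5 and 436.7 at 10 min and 280.8 and 1034.4 at 30 min. TSA1 read 2540.1 and 1135, then 1032.3 and 2272, and TRX2 read 900.5 and 313.3, then 340.7 and 874.7. GRX1 read 1067.5 and 591.5, then 866.1 and 1125, and TSA2 read 45.3 and 29.8, then 28.2 and 42.2. AHP1 was also higher on 10 min replicate 1 and 30 min replicate 2, but it did not fall below steady state on the others. Its 4 signals were 1695.8, 1050.6, 1075.2 and 1475.5, all within or above the steady state range of 928.8 to 1242.5. With all arrays 1 member was called lower at 30 min, SOD1 (log2 -1.18, limma adjusted p = 0.028), and none at 5 or 10 min. The shares of all genes called lower were 0.615% at 5 min, 25.9% at 10 min and 23.4% at 30 min. The SOD1 call was lost in 7 of 41 alternatives, with an adjusted p of 0.66 without 30 min replicate 1 and of 0.051 to 0.15 in the other 6. The low arrays, 10 min replicate 2 and 30 min replicate 1, are those with the lowest middle-to-3′ actin ratio, whose part in the split was not tested. The array code prefix MA marks 10 min replicate 2, which is low, and 30 min replicate 2, which is high, besides 60 min replicate 1.

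At 60 min the deletion strain's members were low as well. With all arrays 9 of 10 were called lower than at steady state, beside 24.8% of all genes. CTT1 was also called without the 4 discordant arrays (31.3%), but it entered the test only through other deletion arrays, so that call is a description. SOD2 read 4.9 and 4.5, at least 35.4-fold below its steady state signals of 328.3, 457.3 and 509.6 (log2 -5.14, SE 0.989, limma adjusted p = 0.0006). PRX1 read 23.6 and 20.4, a fall of 22.5-fold from 313.2, 619.1 and 616.8. Its lowest steady state value came from replicate 1, the array of low actin ratio. AHP1 read 74.9 and 79.2, a fall of 14.1-fold (log2 -3.82, SE 0.264, limma adjusted p = 1.3e-08). GRX2 read 74.8 and 65.2, a fall of 11-fold, and TSA1 read 595.5 and 598, a fall of 3.68-fold. TRX2 (2.67-fold), SOD1 (2.42-fold), GRX1 (2.10-fold) and TSA2 (2.05-fold) moved less. Without 60 min replicate 1 or 2 SOD1 had an adjusted p of 0.07 or 0.061. With only the compared groups in the fit SOD1 had 0.086 and TRX2 0.063.

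By 120 min AHP1 had risen again in the deletion strain. It read 713.8 and 685.8, which is 9.08-fold above its 60 min level (log2 3.18, SE 0.29, limma adjusted p = 3.6e-06). It was the only member called higher at 120 than at 60 min, when 2.96% of all genes were. Without the 4 discordant arrays 8 members were called higher (18.1% of all genes), among them GRX2 at 302.2 and 280.5 (log2 2.06), PRX1 at 123.4 and 107.3 (2.39), SOD2 at 38.6 and 48 (1.84) and TSA1 at 1247.8 and 1340.7 (1.12). Against steady state, SOD2 alone was called lower at 120 min with all arrays, by 9.86-fold (limma adjusted p = 0.023, against 12.8% of all genes). That call had an adjusted p of 0.058 to 0.14 without steady state replicate 2 or 3 or either 120 min array, 0.053 with the replicate block and 0.17 with only the compared groups in the fit. When the 4 discordant arrays at 10 and 30 min were left out, 7 members were lower than at steady state (22.3% of all genes), including PRX1 (log2 -2.10), GRX2 (-1.40), SOD1 (-0.93) and TSA1 (-0.76).

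Between strains, 8 members were called higher in the deletion strain at 30 min, beside 36.8% of all genes, with a median log2 difference of 2.26 beside 0.43. These values rest on the discordant 30 min arrays, and with only the compared groups in the fit none was called. The share of all genes called in that fit is not given here, so this loss need not be particular to the members. At the later times, whose replicates matched across genes (r = 0.973 and 0.989 in the deletion strain), the median difference was 0.83 at 60 min and 0.97 at 120 min. With all arrays 3 members were called higher in the deletion strain at 60 min and 3 at 120 min, none lower, beside 25.2% and 17.7% of all genes called higher. The median of all genes was itself 0.39 higher in the deletion strain at both times on the scale of the deposited values, so the differences are also given relative to it.

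At 120 min AHP1 was 5.02-fold higher in the deletion strain (log2 2.33, SE 0.29, limma adjusted p = 8.6e-05), or 1.94 on the log2 scale relative to the median of all genes. PRX1 was 7.61-fold higher (log2 2.93, SE 0.928, adjusted p = 0.034, relative 2.54) and TSA2 1.96-fold higher (log2 0.97, adjusted p = 0.0068, relative 0.58). The PRX1 call was lost without any 1 of the 4 arrays at 120 min (adjusted p 0.089 to 0.19), after quantile normalization or at a common median (0.1 for both), with a floor of 48 (0.36) and with the replicate block (0.051). The TSA2 call was lost without replicate 1 of either strain at that time (0.079 and 0.088), after quantile normalization (0.37) and at a common median (0.22). GRX2 was 3.75-fold higher (relative 1.52, adjusted p = 0.083 with all arrays), and SOD2 was at least 3.59-fold higher (relative 1.45, adjusted p = 0.23). Without the 4 discordant arrays 8 members were called at 120 min (40.0% of all genes higher). When these arrays were left out and all arrays were also set to a common median, 5 were called (11.7% of all genes higher). These were AHP1 (log2 1.82, limma adjusted p = 0.00016), PRX1 (2.42, 7.5e-06), SOD2 (1.62, 2.3e-05), GRX2 (1.41, 4e-07) and TRX2 (0.47, 0.043). The TRX2 value rests on deletion arrays that differed from each other, at 761.9 and 421.9. TSA1 was 0.30 higher on the deposited scale and 0.20 lower at the common median, with adjusted p of 0.52 and 0.41.

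At 60 min GRX2 was at least 5.82-fold higher in the deletion strain (log2 2.54, SE 0.766, limma adjusted p = 0.019), or 2.15 relative to the median of all genes. AHP1 was 2.33-fold higher (log2 1.22, adjusted p = 0.0047, relative 0.83) and GRX1 1.82-fold higher (log2 0.86, adjusted p = 0.025, relative 0.47). Leaving out any 1 of the 4 arrays at 60 min gave GRX2 an adjusted p of 0.05 to 0.11. AHP1 reached 0.068 without reference replicate 2, and GRX1 0.099 to 0.21 without either reference array or deletion replicate 1. A floor of 48 took GRX2 to 0.54 (adjusted p = 0.7). AHP1 was not called after quantile normalization (0.2), at a common median (0.1), with a floor of 48 (0.074) or with only the compared groups (0.073). GRX1 was not called after quantile normalization (0.052), at a common median (0.32), with only the compared groups (0.063) or without the MA arrays (0.052). Leaving out the 4 discordant arrays, 8 members were called at 60 min (42.6% of all genes higher). With the common median as well, 2 were called (17.7% of all genes higher), GRX2 (log2 2.48, adjusted p = 1.3e-09) and TRX2 (0.51, 0.024). SOD2 and CTT1 lay under the floor in both strains at 60 min and gave no difference.

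**Figure D3:**
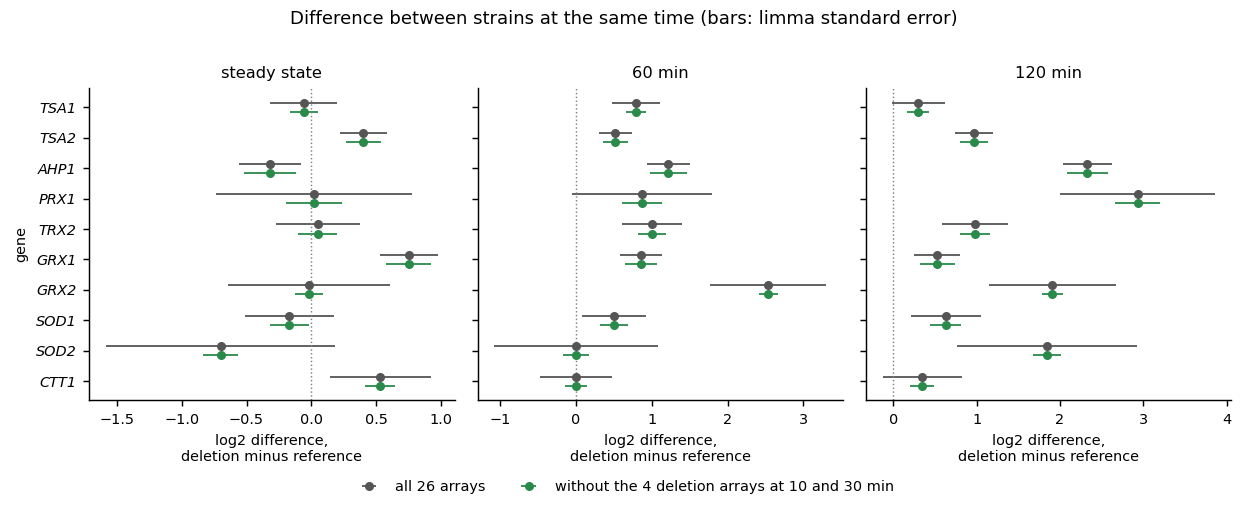
Log2 difference between strains (deletion minus reference) at steady state, 60 min and 120 min, with limma standard errors as bars, from all 26 arrays (grey) and without the 4 deletion arrays labelled 10 and 30 min (green). The values are the same in both fits and the errors shrink most for GRX2, PRX1 and SOD2. At 120 min AHP1, PRX1, GRX2 and SOD2 lie furthest to the right.

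The strain by time interaction asks whether the change from steady state itself differed, as the deletion strain's change minus that of the reference strain. Over all 5 times together 7 of 10 members passed the moderated F-test, beside 20.9% of all genes. AHP1 had the lowest limma adjusted p (1.7e-05), followed by TSA1 (0.0024) and GRX2 (0.0062). SOD2 (0.11), SOD1 (0.14) and CTT1 (0.68) did not pass. Without the 4 discordant arrays the test covers 5, 60 and 120 min, and 8 passed it (27.9% of all genes), with GRX1 (0.39) and TSA2 (0.064) missing. The 8 include CTT1, which entered the test only through deletion arrays, so its pass supports nothing.

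AHP1 was the member whose interaction was called at 30, 60 and 120 min with all arrays. At 30 min it was 4.11 on the log2 scale (SE 0.374, limma adjusted p = 2.8e-06), when 21.1% of all genes had a higher interaction, and it was 4.34 without the deletion strain's 30 min replicate 1 and 3.89 without replicate 2. At 60 min it was 1.54 (adjusted p = 0.026, 3.07% of all genes), and 4 of the single arrays, when left out, ended the call, with adjusted p of 0.062 without reference steady state replicate 2, 0.15 without reference 60 min replicate 2, 0.069 without deletion steady state replicate 2 and 0.095 without deletion 60 min replicate 1. At a common median AHP1 at 60 min was 1.18 (adjusted p = 0.13), after quantile normalization 0.93 (0.3) and with a floor of 48 1.00 (0.1). At 120 min the interaction was 2.65 (SE 0.374, adjusted p = 0.001, 1.62% of all genes), and it stayed called in all 42 alternatives that gave a value, with log2 values of 2.27 to 2.87. With the 4 discordant arrays left out, 6 members were called at 120 min (15.2% of all genes): AHP1, PRX1 (2.91), SOD2 (2.55), GRX2 (1.93), TRX2 (0.93) and SOD1 (0.80). For TRX2 the deletion arrays at 120 min differed from each other, at 761.9 and 421.9.

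At steady state no member was called between strains with all arrays, beside 5.74% of all genes. AHP1, TSA1, PRX1, TRX2, GRX2 and SOD1 differed by no more than 0.32 on the log2 scale. GRX1 came closest, with 1141.8, 1064.9 and 870.3 in the deletion strain against 717.5, 447.4 and 697.2 in the reference. These values did not overlap and gave 1.68-fold (log2 0.75, SE 0.225, limma adjusted p = 0.059). Without the 4 discordant arrays 4 members were called (26.5% of all genes): GRX1 (adjusted p = 0.0058), SOD2 (log2 -0.70, adjusted p = 0.0019), TSA2 (0.40, 0.04) and CTT1. The lowest SOD2 signal of the deletion strain at steady state, 328.3, came from replicate 1, the array of low actin ratio. With the common median added, GRX1 (0.62, 0.013) and SOD2 (-0.83, 0.0031) were called (22.9% of all genes) and TSA2 (0.27, 0.22) was not. CTT1 entered the test only through deletion arrays, all reference arrays being under the floor, so its call supports nothing.

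Related genes changed by different amounts. For 5 pairs the log2 ratio of the signals within each array was compared between steady state (3 arrays) and 30 to 120 min (6 arrays) with an exact two-sided permutation test in each strain, 10 tests in all, for which 0.024 is the lowest possible p. In the reference strain the ratio of GRX1 to GRX2 rose by 4.24 on the log2 scale and that of SOD1 to SOD2 by 3.84, both as lower bounds, since GRX2 and SOD2 reached the floor. Both had p = 0.024 in the exact test, adjusted p = 0.048, with no overlap between the array groups. The ratio of TRX2 to TRX1, the other cytosolic thioredoxin, fell by 0.95 (exact test p = 0.024, adjusted p = 0.048). The ratio of TSA1 to TSA2 was lower by 1.06 but overlapped (exact test p = 0.071, adjusted p = 0.1). CTA1, the peroxisomal catalase, went from a mean of 1078 to 34.95 at 30 min and 17.2 at 120 min in the reference strain, while CTT1 stayed under the floor. In the deletion strain the changes of GRX1 to GRX2 (1.47), SOD1 to SOD2 (2.35), TSA1 to TSA2 (-0.46) and TRX2 to TRX1 (0.43) did not pass (adjusted p 0.1 to 0.26 in the exact test). CTT1 to CTA1 rose by 4.72 there (exact test p = 0.024, adjusted p = 0.048), a value that rests on CTA1. This pair also had exact test p = 0.024 in the reference strain, where CTT1 lay under the floor and only CTA1 could move it. The adjusted p of 0.048 for the other pairs depends on both tests of CTT1 to CTA1 also having the lowest p. With the deletion strain's 60 and 120 min arrays alone, its changes were 1.66 for GRX1 to GRX2, 3.12 for SOD1 to SOD2 and 5.50 for CTT1 to CTA1, with no overlap. Its 3 against 4 arrays allow no p under 0.057 in the exact test, so none could pass.

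**Figure D4:**
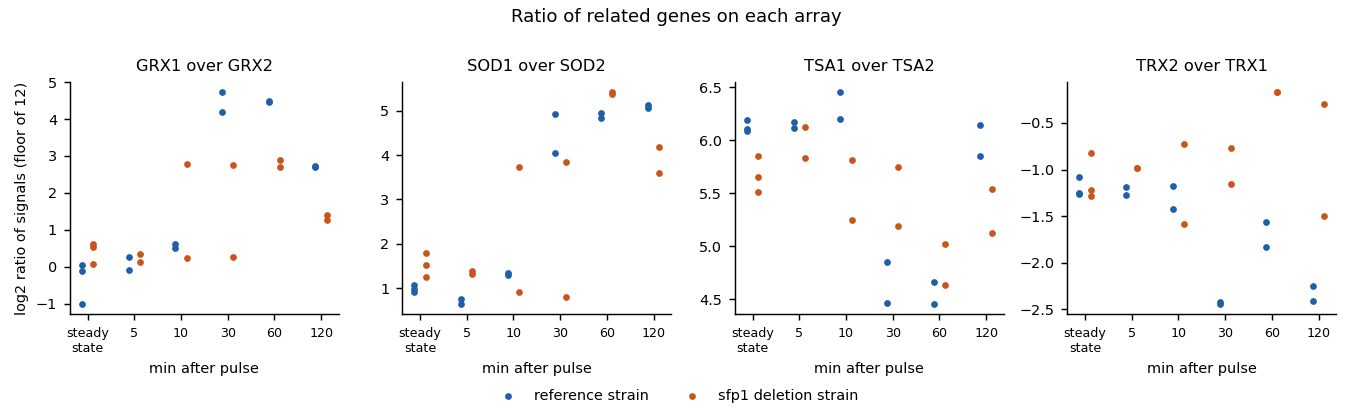
Log2 ratio of the signals of 2 related genes on each array, with a floor of 12, against time in min after the pulse, for the reference strain (blue) and the deletion strain (orange). The heights of different ratios cannot be compared, as probe sets differ in response. On the reference arrays GRX1 over GRX2 and SOD1 over SOD2 lie higher from 30 min on than at the earlier times. SOD1 over SOD2 is also high on the deletion arrays at 60 min, where SOD2 lies under the floor.

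Other genes of the same pathways were also lower in the reference strain at 30 min, when 48.4% of all genes were called lower. Of 8 other thioredoxin system genes 7 were lower and none higher (median log2 -1.89, beside -0.53 over all genes). The mitochondrial thioredoxin reductase TRR2 fell by 3.89, the methionine sulfoxide reductases MXR2 and MXR1 by 3.26 and 2.01, and the mitochondrial thioredoxin TRX3 by 2.12 (limma adjusted p 1.1e-05 or lower for each). The cytosolic thioredoxin reductase TRR1 did not pass (log2 0.03, limma adjusted p = 0.91). Of 15 glutathione and glutaredoxin genes 11 were lower and 1 higher (median -1.43). GPX1, a glutathione peroxidase, had a log2 change of -4.20, the secretory pathway glutaredoxin GRX6 of -3.19, the glutathione-degrading ECM38 of -2.91 and the peroxidase HYR1, which signals to Yap1, of -2.81 (limma adjusted p 2e-05 or lower). GRX8 was the 1 that rose (1.16, limma adjusted p = 0.014). Of 8 tested genes for other peroxidases, catalase and metal supply 5 were lower and none higher (median -1.69), a count not far from the share of all genes. CTA1 fell by 4.95, the manganese transporter SMF2 by 2.65, the copper transporter CTR1 by 2.26 and the mitochondrial cytochrome c peroxidase CCP1 by 2.17. CCS1, the copper chaperone of Sod1, did not pass (log2 0.39, limma adjusted p = 0.17).

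Of 11 genes that supply NADPH 8 were lower and 1 higher at 30 min in the reference strain (median -1.44). The counts of this and the next lists again stand beside 48.4% of all genes called lower. IDP2 fell by 4.82, GND2 by at least 4.40, ZWF1, which opens the pentose phosphate pathway, by 3.08, and SOL3 by 2.41. TKL1 rose by 0.42 (limma adjusted p = 0.048). The 12 regulators split into 9 lower and 3 higher. YAP1 itself fell by 1.38, MSN4 by 1.06 and MSN2 by 0.86, whereas HAP1 (1.09), SKN7 (0.64) and HOG1 (0.62) were higher (limma adjusted p 0.027 or lower for all of these). Of 15 stress genes that Msn2 and Msn4 are known to control, 14 were lower and none higher (median -3.85), led by PNC1 (-5.51) and the trehalose synthesis genes TPS2 (at least -4.78), TSL1 (at least -4.68) and TPS1 (-4.64). The 10 tested stress genes of Yap1 were mixed, with 5 lower and 3 higher (median -0.58, beside -0.53 over all genes). Their count of lower genes was near the share of all genes. GRE2 fell by 3.09, while ATR1 rose by 2.82 and OYE2 by 1.99. AHP1, TSA1, TRX2, SOD1 and the other members were not counted in these lists.

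**Figure D5:**
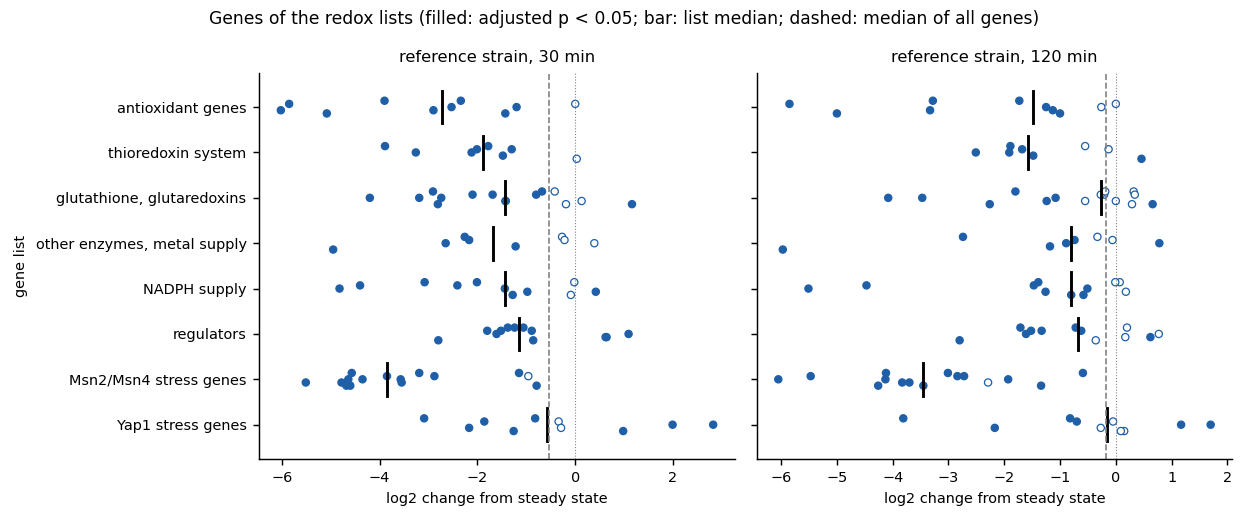
Log2 change from steady state in the reference strain at 30 min (left) and 120 min (right) for the antioxidant genes and 7 further gene lists. Each point is a gene, filled where limma adjusted p is under 0.05, the black bar is the list's median and the dashed line the median of all genes. The Msn2/Msn4 list lies lowest, with a median of -3.85 at 30 min.

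At 120 min 28.5% of all genes were called lower in the reference strain. There 5 of the 8 thioredoxin system genes were still lower and 1, TRR1, was higher (0.46, limma adjusted p = 0.045). Of the glutathione and glutaredoxin genes 6 of 15 were lower and GRX3 was higher (0.66, limma adjusted p = 0.019). Also lower were 8 of the 11 NADPH genes and 14 of the 15 Msn2 and Msn4 stress genes. In the deletion strain at 60 min 15 of these 15 stress genes were lower (median -4.01), as were 7 of the 8 thioredoxin system genes, 5 of the 15 glutathione and glutaredoxin genes and 7 of the 11 NADPH genes, beside 24.8% of all genes. There TRR1 (0.65), GRX4 (1.08) and GRX3 (0.64) were higher (limma adjusted p 0.021 or lower). Between strains at steady state 5.74% of all genes were called in either direction. Of the 10 tested Yap1 stress genes 6 were higher in the deletion strain and none lower (median 0.76, beside 0.13 over all genes). They were FLR1 (1.47), GRE2 (1.14), FRM2 (at least 1.10), OYE2 (0.87), YCF1 (0.77) and AAD4 (0.63). SRX1, the sulfiredoxin that restores overoxidized peroxiredoxins, was lower (-1.02, limma adjusted p = 0.0012).

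Of 9 genes known to respond to oxygen, 2 were higher and 4 lower at 30 min in the reference strain, and 5 were higher and 4 lower at 120 min. Over all genes 48.4% and 28.5% were called lower at these times, and the shares called higher are not given here. The 4 lower ones of the 9 included CYC7, a cytochrome c gene induced when oxygen is low, which averaged 22.57 at steady state and 0.75 at 30 min. DAN1 and COX5B, also genes of low oxygen, lay at the floor at steady state and 30 min. CYC1, which encodes the aerobic cytochrome c, averaged 1576 at steady state and 33.7 at 30 min in the reference strain, a fall of 46.9-fold (limma adjusted p = 2e-06). ANB1, a gene repressed in the presence of oxygen, went from under 17 to 2782.1 and 3064.5 at 30 min and 4493.5 and 4086.6 at 120 min, at least 218-fold and 320-fold (limma adjusted p = 7.8e-09 and 4.8e-09). ANB1 in the deletion strain read 11.3 and 65.7 at 10 min, 60.1 and 8.1 at 30 min, 868 and 842.1 at 60 min and 485.3 and 553.9 at 120 min. Its higher array at 10 min and at 30 min was the array on which GRX2, PRX1 and SOD2 were low. CYC1 split in the same way, with 793.3 and 88.9 at 10 min and 104.3 and 721.6 at 30 min. Between strains at 120 min 3 of the 9 were called, 1 higher and 2 lower in the deletion strain. Over all genes 17.7% were called higher, and the share called lower is not given here. ANB1 was 8.27-fold lower in the deletion strain (limma adjusted p = 0.0029) and DAN1 6.70-fold lower (limma adjusted p = 2.1e-09). COX5B, a low oxygen form of a cytochrome c oxidase subunit, averaged 86.9 against 15.85 and was 5.43-fold higher (limma adjusted p = 9e-09), while HEM13 differed by -0.33 and TIR1 by 0.14, with adjusted p of 0.78 and 0.76.

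Profiles were also compared across the 12 group means, among 4595 genes whose means spanned at least 1 on the log2 scale. The points share arrays and a common fall, so the correlations are descriptions only. PRX1 was most like AMS1 (r = 0.995) and the respiratory chain genes COX4 (0.994) and QCR10 (0.992). SOD2 was most like ALD4 (0.995), CYB2 (0.993) and LSC2 (0.993), and SOD1 like MCR1 (0.989), COA3 (0.98) and NDI1 (0.98). GRX2 and TRX2 were each other's closest match (0.993), ahead of MRP8 (0.992) and PRC1 (0.992) for GRX2 and of PMC1 (0.987) and GLO1 (0.987) for TRX2. AHP1 was most like NCE102 (0.989), DDR48 (0.987) and HSP12 (0.977). TSA1 was most like TMH11 (0.989), PMC1 (0.989) and WTM1 (0.983). GRX1 came closest to DFG5 (0.966), CAK1 (0.965) and YBR137W (0.964), and TSA2 to YFT2 (0.979), CAK1 (0.977) and DIB1 (0.971). CTT1 had the weakest best matches, SPI1 (0.878), ALD3 (0.87) and YNR064C (0.862), on a profile that lay at the floor in the reference strain. Among the members themselves r ran from 0.205 between SOD1 and CTT1 to 0.993 between GRX2 and TRX2.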

How the data were processed

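Affymetrix yeast arrays gave 1 linear intensity per probe set, which the authors computed with GCOS, per the submitters' processing notes. Its version, algorithm and scaling are not stated in what was used here, but the intensity values show scaled arrays, with a 2% trimmed mean of 150.1 to 150.2 on each, and they were used as deposited. All 26 sample columns were used. Precision is limited by how few arrays each group has.

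Of 9335 probe sets 60 controls were left out, 6504 name 1 gene, 328 several and 2443 none in the platform annotation. Symbols were updated from RefSeq, which held all 5656 genes. For genes with several probe sets the highest mean log2 signal was used. Signals under 12 were set to 12 and log2 was taken, so folds against a group with arrays at this floor are lower bounds. Genes above 12 on fewer than 2 arrays were left out (287), leaving 5369, and all 10 antioxidant genes passed, CTT1 through deletion arrays alone.

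Means of 12 groups were fitted with limma 3.58.1 (lmFit, eBayes with an intensity trend, 14 residual and 3.59 prior degrees of freedom) in R 4.3.3. Tests were two-sided with Benjamini-Hochberg adjusted p under 0.05 over all genes of a comparison. Pair ratios used exact permutation tests (scipy 1.17.1). On simulated data over 5369 genes, the steady state comparison recovered 56 of 100 genes given a log2 change of 1, and 86 of 100 given 2. The reference strain at 30 min recovered 34 and 78. Of the unchanged genes 4 and 5 were called at steady state, and 1 and 9 at 30 min. The changed genes all started well above the floor and were few, whereas 48.4% of all genes were called lower at 30 min in the data. These counts therefore do not give the power of the tests reported here, nor that for genes near the floor.

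The 10 genes, the further lists and the tests were chosen with earlier results of these data known. Genes named besides the 10 are checks of the strains, up to 4 called members of a list with the largest change, list members chosen for their known role after their values were seen, and the 3 genes of most similar profile. Alternatives covered scaling, floor, filter, probe sets, trend, threshold, blocks by replicate number and array code, the arrays entering the fit, and each array left out in turn.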

Additional observations from a re-analysis of the deposited data

Results flagged for a closer look

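These results stand out because the change from steady state differed between the strains by a test of the difference itself, the limma interaction of the deletion strain's change minus that of the reference strain. At 30 min the log2 interaction was 4.11 for AHP1, 4.88 for GRX2, 3.86 for SOD2, 3.74 for PRX1, 2.38 for TSA1, 2.16 for TRX2, 1.16 for GRX1 and 1.11 for TSA2, when 21.1% of all genes were called with a higher interaction. Each of these rests on the discordant deletion arrays labelled 30 min, and whether their labels were exchanged with those of 10 min arrays was not tested. Without deletion 30 min replicate 2, the array with signals near steady state, AHP1 was 3.89 (adjusted p = 1.4e-05), GRX2 3.44 (0.011), TSA1 1.82 (0.0025) and TRX2 1.48 (0.036), while PRX1 (1.93, 0.19), SOD2 (1.40, 0.36), GRX1 (0.97, 0.084) and TSA2 (0.82, 0.056) were no longer called. Leaving out other single arrays also ended the call for GRX1 (5 arrays in all, adjusted p 0.051 to 0.12), PRX1 (4 in all, 0.056 to 0.19) and SOD2 (23 of the 26, 0.055 to 0.36). Quantile normalization ended it for GRX1 (0.084), PRX1 (0.065) and TSA2 (0.16), a common median for GRX1 (0.091) and TSA2 (0.065), and a floor of 48 for PRX1 (0.23). SOD2 lost it in 5 further alternatives (0.065 to 0.11). Without replicate 1 all 8 were called, with values of 6.33 for SOD2, 6.32 for GRX2, 5.55 for PRX1, 4.34 for AHP1, 2.95 for TSA1, 2.84 for TRX2, 1.40 for TSA2 and 1.34 for GRX1.

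At 60 min AHP1 had an interaction of 1.54 (adjusted p = 0.026), which 4 single arrays ended when left out (0.062 to 0.15), and at 120 min of 2.65 (adjusted p = 0.001), which no single array ended.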

How the results depend on the processing

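No called change of a single antioxidant gene turned its direction: 66 called changes were recomputed 2780 times, of which 2642 kept the call and 138 lost it. Most of these recomputations left out 1 array, which often lay outside the comparison, where the log2 change cannot move. The counts below are of genes called out of 10. They start from 9 in the reference strain at 30 and 60 min and 8 at 120 min, 0 at 5 and 10 min, and 4 at 120 against 30 min. In the deletion strain they start from 0, 0, 1, 9 and 1 in order of time, and 1 at 120 against 60 min. Between strains they start from 0 at steady state, 5 and 10 min, 8 at 30 min, 3 at 60 and 3 at 120 min, with 7 in the F-test. The reference counts at 30, 60 and 120 min and the deletion count at 60 min stayed within 1.5 times these values under all alternatives run. The cause of the shifts was not tested. The share of all genes is not given beside the counts below, so a shift need not be particular to the antioxidant genes. Where 1 was called in the deletion strain at 5 min it was CTT1, which was higher. Where 2 were called between strains at 5 min they were CTT1, higher in the deletion strain, and SOD2, lower. CTT1 entered the tests only through deletion arrays, so its calls support nothing.

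Quantile normalization gave 1 in the deletion strain at 10 min, 2 at 120 min, 1 between strains at steady state, at 60 and at 120 min, and 3 in the F-test. A common median gave 0 in the deletion strain at 30 min, 2 for the reference at 120 against 30 min, 1 between strains at 60 and at 120 min, and 3 in the F-test. A floor of 48 gave 2 for the deletion strain at 120 against 60 min, 1 between strains at steady state, 60 and 120 min, 5 at 30 min and 4 in the F-test. A threshold of 0.01 gave 3 in the F-test, 1 for the reference at 120 against 30 min, 1 between strains at 60 min and 0 in the deletion strain at 30 and 120 min.

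With only the groups compared in the fit, 0 were called in the deletion strain at 30 and 120 min, 2 in the reference at 10 min, and 2, 0 and 8 between strains at 5, 30 and 120 min. Without 10 min replicate 2 and 30 min replicate 2 of the deletion strain, 1, 1, 8 and 7 were called in that strain at 5, 10, 30 and 120 min and 8 at 120 against 60 min. The reference then gave 2 at 10 min and 7 at 120 against 30 min, and the strains differed in 4, 2, 3, 8 and 8 at steady state, 5, 10, 60 and 120 min. Without all 4 discordant arrays, 1 and 7 were called in the deletion strain at 5 and 120 min, 8 at 120 against 60 min, 2 in the reference at 10 min, 7 at 120 against 30 min, and 4, 2, 8 and 8 between strains at steady state, 5, 60 and 120 min. Pooling these arrays into 1 group gave 1 in the deletion strain at 10 min, 1 between strains at 10 min and 2 at 120 against 60 min. With the deletion strain's 60 and 120 min arrays alone, 0 instead of 5 pair tests passed, which follows from the smaller design: its lowest possible p is 0.057, the reference ratios are the same values, and only their adjusted p rose, to 0.06.

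Of the alternatives, 3 were chosen after seeing the data. Without the arrays of code prefix MA, 1, 1, 8 and 7 were called in the deletion strain at 5, 10, 30 and 120 min, 7 at 120 against 60 min, 2 in the reference at 10 min, and 4, 2, 3, 5 and 8 between strains at steady state, 5, 10, 60 and 120 min. With a common median and without the 4 discordant arrays, 1 and 5 were called in the deletion strain at 5 and 120 min, 6 at 120 against 60 min, 2 in the reference at 10 min, and 2, 2 and 5 between strains at steady state, 5 and 120 min. Crossing the numbers of the deletion 30 min arrays in a block by replicate number left all 66 calls in place. The planned block, with the numbers as deposited, gave 0 in the deletion strain at 30 and 120 min and 4 in the F-test. The numbers were not taken to pair the samples, since only 15 of 30 same-number correlations in the reference strain (-0.251 to 0.272) and 9 of 30 in the deletion strain (-0.719 to 0.356) were over 0.1. Between 2 groups of 2 arrays both numbers give the same correlation by construction, so these correlations are not all distinct. In the reference strain those between times after the pulse were all above 0 (0.0697 to 0.272), a hint from the data and not from the design.

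Leaving out each array in turn gave, for the reference strain, 0 to 0 before 30 min, 9 to 9 at 30 and 60 min, 7 to 8 at 120 min and 1 to 4 at 120 against 30 min. The deletion strain gave 0 to 0 at 5 min, 0 to 7 at both 10 and 30 min, then 8 to 9 and 0 to 4 at 60 and 120 min, and 1 to 5 at 120 against 60 min. Between strains it gave 0 to 1 at steady state and then, in order of time, 0 to 0, 0 to 5, 6 to 10, 0 to 6 and 1 to 5, with 3 to 9 in the F-test. Signals near the floor limit TSA2, CTT1 and the late values of SOD2, PRX1 and GRX2.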
